A study of Mus musculus with 26 samples.

Results

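Cholesterol leaves liver cells by several routes, and 10 mouse genes of these routes were followed: the cellular efflux transporters Abca1 and Abcg1, the bile-facing transporter genes Abcg5 and Abcg8, the HDL receptor Scarb1, the cholesterol-esterifying enzymes Soat1 and Soat2, the plasma enzymes Lcat and Lipc, and the lysosomal transporter Npc1. They were picked by symbol, as members of these routes, with earlier results of these data known. Shares of them that rose or fell are therefore descriptions only. All 10 were found among the 55401 genes of the deposited count table, and all 10 were among the 16238 genes that passed the filter on low counts. The lowest count of any of them was 690 reads (Soat1) and the highest was 13700 reads (Abcg8) in a single library.

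Liver RNA was sequenced in bulk from male C57BL/6 mice that began a high-fat diet at 4 weeks of age and stayed on it for 18 weeks; the series design adds high cholesterol to the diet. The 8 UCMSC-Exos libraries came from mice injected in the tail vein with exosomes of UCMSC origin every 72 hours for 8 weeks. The 9 untreated HFD libraries came from mice on the same diet, labelled as MASLD mice, for which no injection is listed. The exosomes, the repeated injection and any cage or cohort difference therefore cannot be told apart, and 9 samples treated with a product named LSCR were not analysed here.

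As background, ABCA1 passes cholesterol and phospholipid to lipid-poor apolipoprotein A-I, ABCG1 passes cholesterol to formed HDL particles, and both genes are classical targets of the oxysterol receptors LXRα and LXRβ. LCAT esterifies cholesterol on HDL in plasma, hepatic lipase (Lipc) remodels the particle, and SR-BI (Scarb1) takes up its cholesteryl esters into hepatocytes. Inside the cell, the acyltransferases SOAT1 and SOAT2 store cholesterol as ester, NPC1 releases it from lysosomes, and the ABCG5/ABCG8 heterodimer secretes it into bile.

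Each library held between 32941467 and 36065074 counted reads, with both mates of a pair counted. Of the 16238 genes tested, 1580 (9.73%) rose and 1694 (10.4%) fell in UCMSC-Exos livers at an edgeR quasi-likelihood adjusted p under 0.05, which is 20.2% in either direction. The number of calls moved with single libraries: it was 2005 without UCMSC-Exos 3, 2086 without UCMSC-Exos 2 and 5823 without UCMSC-Exos 9. Among UCMSC-Exos libraries, number 9 stood at -33.25 on the first principal component (52.4% of variance) while the other 7 lay between 19.91 and 46.29, and the untreated libraries lay between -41.37 and -0.82. Untreated HFD 3 carried 11530 CPM (a gene's reads scaled to the library's total) of acinar pancreas marker transcripts and untreated HFD 9 carried 7827 CPM of skeletal muscle marker transcripts, where every other library had at most 1.191 CPM of either list. Mitochondrially encoded transcripts summed to 26810 to 48560 CPM in UCMSC-Exos livers and to 2953 (untreated HFD 3) to 61400 CPM (untreated HFD 9) in untreated livers, with 0 of 13 past the threshold. Without these 2 libraries 12 of 13 rose, and without untreated HFD 9 alone 3 of 13 rose. Of 5 erythroid markers 3 rose, Hba-a1, Hba-a2 and Alas2, with sums of 140.7 to 344.4 CPM in UCMSC-Exos livers and 71.45 to 199.5 CPM in untreated livers; without untreated HFD 3 all 5 rose.

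In UCMSC-Exos livers, Abcg5, Abcg8, Scarb1, Lcat and Lipc rose to between 1.41 and 1.77 times their untreated levels and Abcg1 fell to 0.716 times its untreated level. Thus 5 of the 10 genes rose, against 9.73% of all genes tested, and 1 of 10 fell, against 10.4%. The other 4, Abca1, Soat1, Soat2 and Npc1, did not pass. Across the 10 genes the median log2 fold change was 0.35, beside -0.02 over all genes tested. Leaving out untreated HFD 3 and 9 kept the counts at 5 higher and 1 lower, and leaving out UCMSC-Exos 9 gave 7 higher and 2 lower. With 3 surrogate variables in the model, Scarb1 and Lipc were the 2 that rose and 0 fell. In whole liver, fewer cells of a type and less RNA per cell cannot be told apart, so every value below is a level in the tissue.

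**Figure D1:**
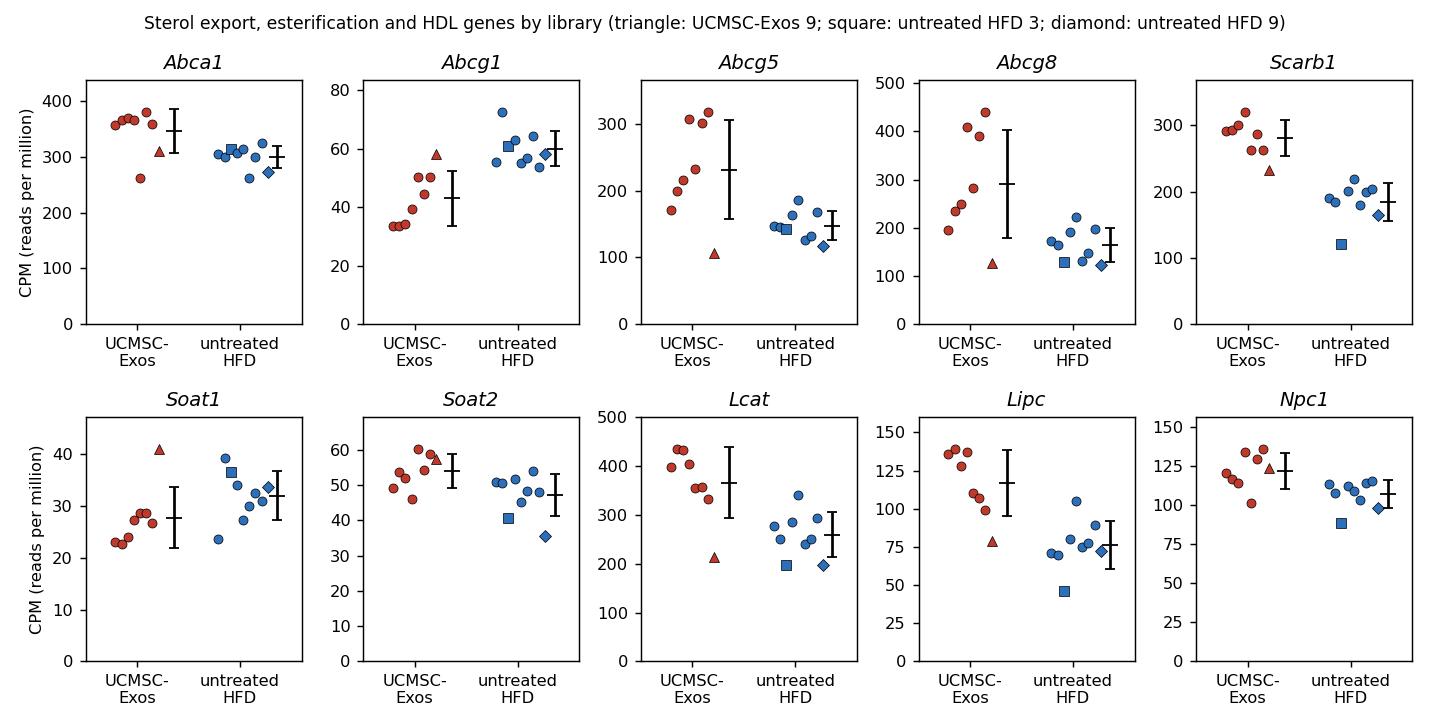
CPM of each of the 10 genes (vertical axes, linear from 0) in every library, UCMSC-Exos (red, n = 8, triangle for number 9) left of untreated HFD (blue, n = 9, square for number 3, diamond for number 9), with the mean and SD beside the points. The groups were separate for Scarb1, while UCMSC-Exos 9 fell among or below the untreated libraries for Abcg5, Abcg8, Lcat and Lipc and among them for Abcg1.

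The transporter genes that send sterols into bile both rose. Abcg8, on chromosome 17 from 84676302 to 84700333 (mm10, plus strand), encodes one subunit of the sterol heterodimer of the canalicular membrane. Its lowest, median and highest levels were 126, 266 and 441 CPM in UCMSC-Exos livers, against 123, 164 and 223 CPM in untreated livers. Numbers 5, 7 and 8 of the UCMSC-Exos libraries, at 408, 391 and 441 CPM, were the high end, 6 of 8 exceeded every untreated library, and numbers 1 and 9 lay inside the untreated range. In raw counts numbers 2 and 3 (7142 and 7469) were below untreated HFD 5 (7569), so their placement depends on the TMM factors. Abcg8 averaged 291 ± 112 CPM with UCMSC-Exos and 164 ± 35.2 CPM without (SD, n = 8 and 9), a log2 fold change of 0.83 ± 0.21 (SE, adjusted p = 0.0111).

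Abcg5, on the same chromosome from 84658234 to 84683011 (minus strand), encodes the partner subunit. It measured 106, 224 and 319 CPM (lowest, median, highest) in UCMSC-Exos livers and 117, 146 and 186 CPM in untreated livers. Again 6 of 8 UCMSC-Exos libraries were above every untreated one, while UCMSC-Exos 9 had the lowest value of all 17 libraries. In raw counts UCMSC-Exos 2 (6077) was below untreated HFD 5 (6323), and UCMSC-Exos 9 (4525) was above untreated HFD 9 (4182). The placement of UCMSC-Exos 2 and 9 therefore depends on the TMM factors. The means were 232 ± 74.7 and 148 ± 21.9 CPM (UCMSC-Exos and untreated, SD), with a log2 fold change of 0.65 ± 0.17 (adjusted p = 0.0141). Without UCMSC-Exos 9 the estimates were 0.76 for Abcg5 and 0.94 for Abcg8. With surrogate variables they were 0.23 (adjusted p = 0.420) for Abcg5 and 0.33 (adjusted p = 0.365) for Abcg8, so neither call held there.

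The stretch shown lies between the RefSeq start sites 84683011 for Abcg5 and 84683121 for Abcg8. These sites point away from each other and are 110 bases apart. RefSeq also lists an Abcg8 start site at 84676302, where the annotated gene begins. That site lies inside Abcg5, so the annotated genes overlap and the stretch lies within the span of Abcg8. The name intergenic below refers only to the gap between the start sites 84683011 and 84683121. The sequence is RefSeq's for GRCm38.p6, chr17:84683012-84683120, plus strand, 5′ to 3′. The Abcg5 start site is to its left and the Abcg8 start site 84683121 to its right, and no annotated exon lies in it. Capitals mark the letters that read TATAAA on the minus strand, the strand of Abcg5.
Abcg5-Abcg8 intergenic: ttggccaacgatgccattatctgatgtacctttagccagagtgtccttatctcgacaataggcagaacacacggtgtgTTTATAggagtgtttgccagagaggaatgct
TATAAA on either strand was present in 13.6% of all 32851 RefSeq promoter windows, which run from 250 bases before a start site to 50 after it. The match is a description of letters and not a mapped factor site.

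Within each group the pair moved as one. Over the 8 UCMSC-Exos livers the log2 CPM of Abcg5 and Abcg8 gave Pearson r = 0.994 (exact permutation p = 2.48e-05, adjusted over both groups 4.96e-05) and Spearman rho = 1.0 (exact permutation p = 4.96e-05, adjusted 9.92e-05). Over the 9 untreated livers r was 0.933 (exact permutation p = 0.000366, adjusted 0.000366) and rho was 0.950 (exact permutation p = 0.000353, adjusted 0.000353). Without the 2 libraries farthest from the median, r was 0.998 in UCMSC-Exos livers and 0.870 in untreated livers. Counting used no strand, and the annotated exons of the pair share 82 bases on opposite strands, 3.02% of the exonic bases of Abcg5 and 2.19% of those of Abcg8.

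Abcg8 moved more than its partner. The log2 ratio of Abcg5 to Abcg8 counts within a library averaged -0.30 ± 0.10 in UCMSC-Exos livers and -0.14 ± 0.13 in untreated livers (SD), a difference of -0.17 (two-sided exact permutation test over samples, p = 0.00786, adjusted over 3 ratios 0.0113). The ratios ran from -0.47 to -0.20 with UCMSC-Exos and from -0.26 to 0.16 without, so the groups overlapped, with 4 of 8 UCMSC-Exos libraries below every untreated one. Untreated HFD 3 held the highest ratio, and without it and untreated HFD 9 the difference was -0.11 (exact permutation, adjusted p = 0.0387).

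**Figure D2:**
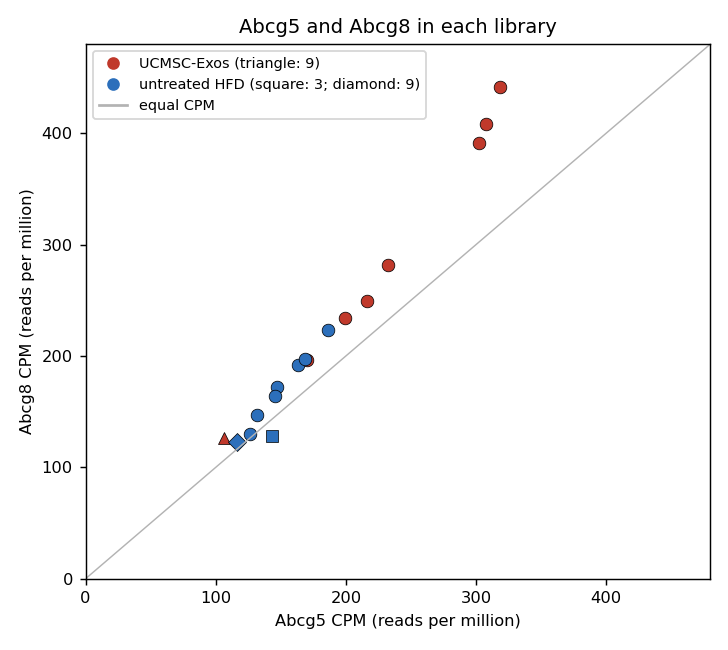
Abcg8 against Abcg5 in CPM (linear axes from 0) for each of the 17 libraries, UCMSC-Exos in red (triangle for number 9) and untreated HFD in blue (square for number 3, diamond for number 9), with a grey line at equal CPM. The libraries followed one narrow band; UCMSC-Exos 9 sat at the low end among untreated livers, and untreated HFD 3 lay below the line.

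Scarb1 gave the cleanest separation of the 10 genes. It lies on chromosome 5 from 125277087 to 125341094 (minus strand) and encodes SR-BI, the receptor by which hepatocytes take cholesteryl ester from HDL. Its lowest, median and highest levels were 233, 289 and 321 CPM in UCMSC-Exos livers, against 121, 191 and 219 CPM in untreated livers. Every one of the 8 UCMSC-Exos libraries was above all 9 untreated ones, an arrangement seen in 80 of all genes tested (0.493%). Mean levels were 282 ± 27.3 CPM with UCMSC-Exos and 185 ± 28.6 CPM without, and the log2 fold change was 0.61 ± 0.10 (adjusted p = 0.000433). The lowest untreated value, 121 CPM, was in untreated HFD 3, the library with pancreatic transcripts, and without untreated HFD 3 and 9 the estimate was 0.52 (adjusted p = 0.000181). With surrogate variables it was 0.40 (adjusted p = 2.63e-05).

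Lipc and Lcat encode enzymes that the liver secretes to act on circulating HDL. Lipc, hepatic lipase, lies on chromosome 9 from 70798128 to 70952226 (minus strand) and had 78.9, 119 and 139 CPM (lowest, median, highest) in UCMSC-Exos livers, against 46.0, 75.3 and 105 CPM in untreated livers. All 8 UCMSC-Exos libraries exceeded the untreated median and 6 of 8 exceeded the untreated maximum, with numbers 8 and 9 the lowest. In raw Lipc counts numbers 6 and 7 (3504 and 3435) were below untreated HFD 5 (3576), so their placement depends on the TMM factors. The means of Lipc were 117 ± 21.6 CPM in UCMSC-Exos livers and 76.3 ± 15.9 CPM in untreated livers, a log2 fold change of 0.62 ± 0.13 (adjusted p = 0.00455). Under surrogate variables the estimate was 0.28 (adjusted p = 0.0184).

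Lcat, lecithin-cholesterol acyltransferase, lies on chromosome 8 from 105939551 to 105943382 (minus strand). Its levels were 215, 378 and 435 CPM (lowest, median, highest) in UCMSC-Exos livers and 197, 251 and 341 CPM in untreated livers. UCMSC-Exos 9, at 215 CPM, stood apart from the other 7, which lay between 331 and 435 CPM, and 6 of 8 were above every untreated library. In raw counts numbers 6 and 7 (11238 and 11488) were below untreated HFD 5 (11568), so their placement depends on the TMM factors. The mean was 366 ± 71.8 CPM with UCMSC-Exos and 260 ± 46.3 CPM without, and the log2 fold change was 0.50 ± 0.13 (adjusted p = 0.0150). Without UCMSC-Exos 9 it was 0.58, and with surrogate variables it was 0.12 (adjusted p = 0.254), where the call ended.

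These 5 genes are strongly used by hepatocytes, and transcripts of that cell type moved alongside them. Of the 9 hepatocyte markers tested, 8 rose and 0 fell (3 and 0 with surrogate variables), where 9.73% of all genes rose and 10.4% fell. Their median log2 fold change was 0.56, above the 0.35 of the 10 sterol genes (0.31 and 0.17 with surrogate variables). The summed level of these markers was 45250 to 82500 CPM in UCMSC-Exos livers, against 39810 to 64260 CPM in untreated livers. UCMSC-Exos 9 had the lowest sum of its group, 45250 CPM, and it also had the most cholangiocyte (581 CPM, 48.4 to 127 CPM in the other 7) and stellate cell marker transcripts (1252 CPM, 388 to 551 CPM in the other 7). In untreated livers these sums ran from 118 to 518 CPM for cholangiocyte markers and from 541 to 1095 CPM for stellate cell markers, and 1 stellate marker (Dcn) fell while 0 cholangiocyte markers passed, of 6 tested in each list. Without UCMSC-Exos 9, 5 of 6 cholangiocyte markers and 3 of 6 stellate cell markers fell. The part of these marker shifts in the results was not tested.

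Of the transporters that load HDL, Abcg1 fell and Abca1 did not pass. Abcg1 lies on chromosome 17 from 31057675 to 31117988 (plus strand) and is known mostly from macrophages and other non-parenchymal cells. It had 33.4, 41.9 and 58.1 CPM (lowest, median, highest) in UCMSC-Exos livers, against 53.7, 58.1 and 72.6 CPM in untreated livers. Below every untreated library lay 7 of the 8 UCMSC-Exos libraries, and number 9, at 58.1 CPM, equalled the untreated median. Abcg1 averaged 43.0 ± 9.36 CPM with UCMSC-Exos and 59.98 ± 6.01 CPM without, a log2 fold change of -0.48 ± 0.11 (adjusted p = 0.00611). With surrogate variables it was -0.33 (adjusted p = 0.0819), which ends the call.

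Abca1 lies on chromosome 4 from 53030787 to 53159895 (minus strand). Its levels were 262, 363 and 382 CPM (lowest, median, highest) in UCMSC-Exos livers and 263, 305 and 325 CPM in untreated livers. UCMSC-Exos 6 was the lowest of all 17 libraries, and 6 of the other 7 were above every untreated library. Its raw counts ran from 8313 to 13217 with UCMSC-Exos and from 9787 to 11722 without, so this placement depends on the TMM factors. The means were 347 ± 40.1 CPM with UCMSC-Exos and 300 ± 20.2 CPM without, with a log2 fold change of 0.21 ± 0.08 that did not pass (adjusted p = 0.0622). The call moved with single libraries and with the testing method. It passed without UCMSC-Exos 6 (0.26, adjusted p = 0.0136), without UCMSC-Exos 9 (0.23, adjusted p = 0.0253) and without untreated HFD 3 (adjusted p = 0.0489). With all 17 libraries kept, Abca1 also passed in DESeq2 and in limma voom.

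The letters before the Abca1 start site are shown because Abca1 and Abcg1, both textbook LXR targets, did not move alike. They are RefSeq's for GRCm38.p6, chr4:53159896-53160055, minus strand, 5′ to 3′, ending at the base before the start site, with no annotated exon inside. Capitals mark CACGTG at position -147 from the start site, the GC-rich GGGCGG at position -97 and the TATA-like TATAAA at position -29.
Abca1 upstream: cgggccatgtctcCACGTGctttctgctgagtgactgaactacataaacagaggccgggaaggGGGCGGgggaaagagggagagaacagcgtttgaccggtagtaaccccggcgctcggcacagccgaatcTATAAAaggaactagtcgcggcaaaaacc
Of all 32851 promoter windows, 7.15% held CACGTG, 35.7% GGGCGG and 13.6% TATAAA on either strand. For the LXR-type direct repeat, AGGTCA with 4 bases between its copies, only exact letters were searched. The exact repeat was in 0 of the 8 windows of the 6 genes that could be matched and in 0.0152% of all windows. Repeats with any letter changed were not searched, in the printed stretch or elsewhere. The search therefore does not show that the stretch lacks an LXR-type repeat, and it says nothing about LXR binding.

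Compared within each library, Abca1 and Abcg1 parted. The log2 ratio of Abca1 to Abcg1 counts averaged 3.03 ± 0.44 in UCMSC-Exos livers and 2.33 ± 0.17 in untreated livers (SD), a difference of 0.71 (two-sided exact permutation test, p = 0.000946, adjusted over 3 ratios 0.00284). Above every untreated library were 6 of 8 UCMSC-Exos libraries, and numbers 6 and 9 lay inside the untreated range of 2.05 to 2.60. Beside Abcg1, 3 of 14 macrophage and Kupffer cell markers fell (C1qa, C1qb and C1qc, the chains of complement C1q) and 2 rose (Marco, a scavenger receptor, and Timd4, a receptor for dying cells), where 10.4% of all genes fell and 9.73% rose. Without UCMSC-Exos 9, 6 of the 14 fell and 3 rose. The summed level of that list ran from 1898 to 2431 CPM in UCMSC-Exos livers and from 1308 to 3106 CPM in untreated livers, and its part in the fall of Abcg1 was not tested.

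**Figure D3:**
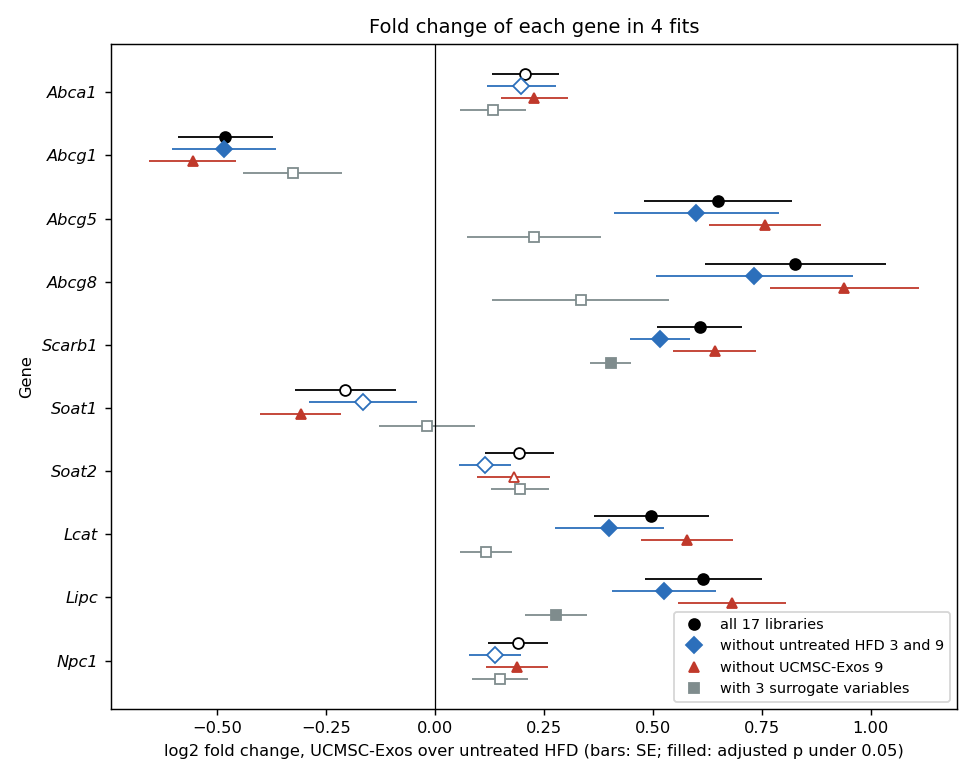
Log2 fold change (UCMSC-Exos over untreated HFD, SE bars) of the 10 genes in 4 edgeR fits: all 17 libraries, without untreated HFD 3 and 9, without UCMSC-Exos 9, and with 3 surrogate variables; filled symbols have an adjusted p under 0.05 and the vertical line marks no difference. Scarb1 and Lipc stayed past the threshold in each fit shown, whereas Abcg1, Abcg5, Abcg8 and Lcat lost it with surrogate variables.

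The esterifying enzymes did not pass, although their ratio shifted. Soat1, on chromosome 1 from 156424525 to 156474331 (minus strand), is the broadly used acyltransferase, prominent in macrophages. It had 22.6, 27.0 and 41.0 CPM (lowest, median, highest) in UCMSC-Exos livers and 23.6, 32.4 and 39.2 CPM in untreated livers. The highest value of all 17 libraries was that of UCMSC-Exos 9, while the other 7 of its group stayed at or below 28.7 CPM. The log2 fold change was -0.21 ± 0.12 (adjusted p = 0.207), and without UCMSC-Exos 9 it was -0.31 (adjusted p = 0.0157), past the threshold.

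Soat2, on chromosome 15 from 102150526 to 102163469 (plus strand), is the acyltransferase of hepatocytes and enterocytes. Its levels were 46.2, 54.0 and 60.2 CPM (lowest, median, highest) in UCMSC-Exos livers, against 35.5, 48.3 and 54.1 CPM in untreated livers. The groups overlapped, and the lowest untreated values were those of untreated HFD 9 and 3. The log2 fold change of 0.19 ± 0.08 did not pass (adjusted p = 0.0910). In the log2 ratio of Soat1 to Soat2 counts, UCMSC-Exos livers averaged -0.98 ± 0.25 and untreated livers -0.56 ± 0.32 (SD), a difference of -0.42 (two-sided exact permutation test, p = 0.0113, adjusted over 3 ratios 0.0113). Of the UCMSC-Exos libraries 3 of 8 lay below every untreated one, and without untreated HFD 3 and 9 the difference was -0.29 (exact permutation, adjusted p = 0.0387).

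Npc1, the lysosomal membrane protein that hands cholesterol out of late endosomes, lies on chromosome 18 from 12189692 to 12236400 (minus strand). It had 102, 122 and 136 CPM (lowest, median, highest) in UCMSC-Exos livers and 88.5, 109 and 116 CPM in untreated livers. Above every untreated library were 6 of 8 UCMSC-Exos libraries, and the lowest untreated one was untreated HFD 3. Raw Npc1 counts ran from 3226 to 5267 with UCMSC-Exos and from 3053 to 4459 without, so this placement depends on the TMM factors. With a log2 fold change of 0.19 ± 0.07 Npc1 missed the threshold (adjusted p = 0.0555). It passed without UCMSC-Exos 6 (adjusted p = 0.0249) and without UCMSC-Exos 9 (adjusted p = 0.0473). With every library kept, Npc1 also passed with RLE scaling in edgeR (adjusted p = 0.0480), in DESeq2 and in limma voom. Exons of the genes Rmc1 and Gm15956 on the opposite strand cover 5.31% of the exonic bases of Npc1, and counting without strand cannot separate reads there.

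Per kilobase of exon the levels were ordered between genes. The length used was that of all annotated exons of a gene and not of the transcripts present, so the order depends on the annotation. In UCMSC-Exos livers Lcat was first at 273 ± 53.5 CPM per kb, against 193 ± 34.5 in untreated livers. Abcg5 (85.4 ± 27.5) and Abcg8 (77.6 ± 29.8) came next with UCMSC-Exos, and in untreated livers they stood at 54.4 ± 8.08 and 43.8 ± 9.39 CPM per kb. Abcg5 was above Abcg8 per kb within 7 of 8 UCMSC-Exos libraries, all but number 8 (117.5 for Abcg5 and 117.6 for Abcg8), and within all 9 untreated libraries. This order rests on the lengths, 2712 and 3749 bases. In counts Abcg8 was the higher on average, with mean log2 ratios of Abcg5 to Abcg8 of -0.30 (UCMSC-Exos) and -0.14 (untreated). Lipc followed at 54.4 ± 10.1 with UCMSC-Exos and 35.5 ± 7.41 without, and then Abca1 at 33.5 ± 3.87 with UCMSC-Exos and 29.0 ± 1.95 without. Scarb1 had 33.1 ± 3.21 CPM per kb in UCMSC-Exos livers and 21.8 ± 3.36 in untreated livers. Soat2 had 24.4 ± 2.17 with UCMSC-Exos and 21.3 ± 2.66 without. Npc1 (10.8 ± 1.01 with UCMSC-Exos, and 9.46 ± 0.793 without), Abcg1 (5.89 ± 1.28, and 8.22 ± 0.824 without) and Soat1 (2.83 ± 0.5996, and 3.27 ± 0.481 without) closed the order.

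Spread between mice differed among the genes. The coefficient of variation of CPM in UCMSC-Exos livers was highest for Abcg8 (38.4%) and Abcg5 (32.2%), which had 21.5% and 14.8% in untreated livers. Among untreated livers Lipc (20.9%), Lcat (17.9%) and Scarb1 also varied more than Abcg5. It was lowest for Soat2 (8.89%), Npc1 (9.32%) and Scarb1 (9.69%) in UCMSC-Exos livers, where the untreated values were 12.5%, 8.39% and 15.5%.

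**Figure D4:**
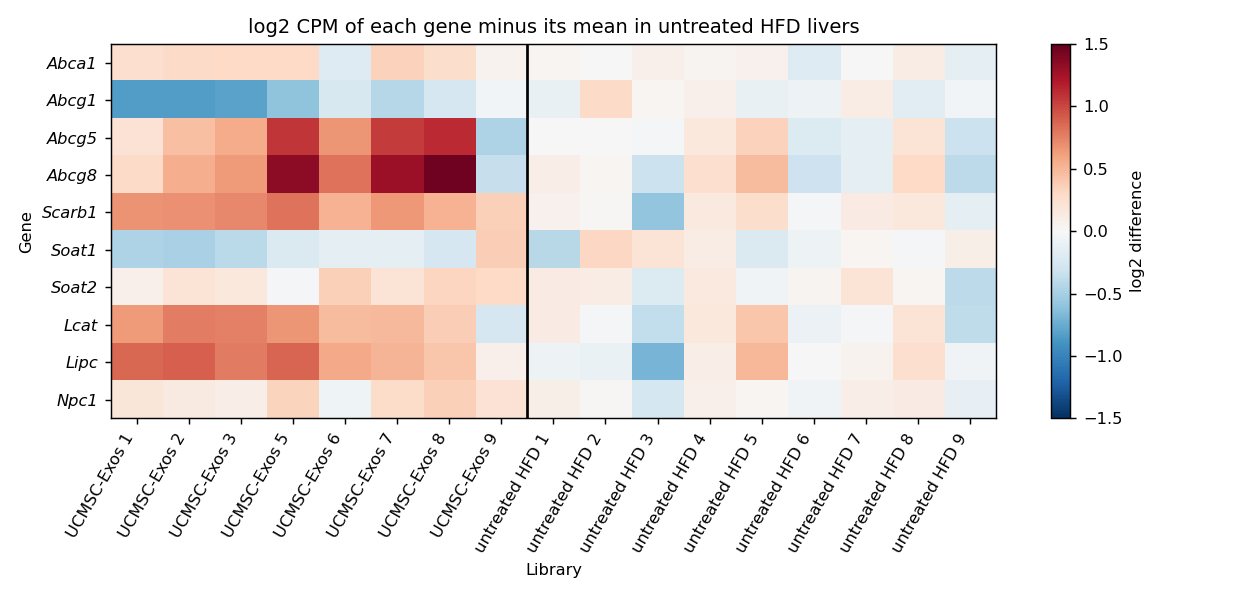
Log2 CPM of each of the 10 genes minus its mean in untreated HFD livers (colour, red above and blue below), with UCMSC-Exos libraries left of untreated HFD libraries. Abcg5, Abcg8, Scarb1, Lcat and Lipc were red and Abcg1 blue in the 7 UCMSC-Exos libraries other than number 9, in which Abcg5, Abcg8 and Lcat were blue and Scarb1 remained red.

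After log2 CPM was centred within each group, the genes fell into pairs across the 17 livers, given as a description since all values share libraries and depth. Abcg5 and Abcg8 gave r = 0.98, Scarb1 and Lipc 0.91, Lcat and Lipc 0.86, Abcg1 and Soat1 0.80, and Scarb1 and Lcat 0.80. Over 10708 genes compared, the gene most like Abcg5 was Abcg8 (r = 0.98), ahead of Cdo1 (0.94) and Sult1b1 (0.93), and after Abcg5 those most like Abcg8 were Adora1 (0.93) and Mb21d2 (0.92). Scarb1 ran closest to Nit1 (0.98), C1ra (0.97) and Pzp (0.96), Lcat to Vtn (0.97), Slc25a23 (0.97) and Nags (0.96), and Lipc to Necap1 (0.95), Nox4 (0.94) and Gpr89 (0.94). Nearest to Abcg1 were Coro2a, Kif11 and Anxa2 (0.89 each), and nearest to Soat1 were Tbxas1 (0.92), Slc38a1 (0.91) and Prex1 (0.90). For Abca1, Soat2 and Npc1 the closest genes were Pdcd6ip (0.88), Plekha5 (0.82) and Arel1 (0.87).

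Neighbouring steps of the pathway were read from lists of other genes. Of 7 genes tested for canalicular lipid and bile acid export, the membrane at which ABCG5/ABCG8 works, 6 rose and 1 fell. Of all genes 9.73% rose and 10.4% fell. The list's median log2 fold change was 0.34 beside -0.02 over all genes. Abcb4, the phosphatidylcholine floppase, averaged 416 ± 22.2 CPM in UCMSC-Exos livers and 348 ± 23.4 CPM in untreated livers (log2 fold change 0.26 ± 0.06, adjusted p = 0.00869). Tmem30a, the partner subunit of lipid flippases, rose by 0.35 ± 0.09 on the log2 scale (adjusted p = 0.00957) and Abcc2, the exporter of bilirubin conjugates, by 0.40 ± 0.11 (adjusted p = 0.0200). Both of those calls were lost with surrogate variables (adjusted p = 0.136 for Tmem30a and 0.295 for Abcc2). The 1 that fell was Abcb1a, a P-glycoprotein gene, by 0.90 on the log2 scale, a call that was lost without UCMSC-Exos 2, 3, 5 or 7. The list counted 4 higher and 1 lower without untreated HFD 3 and 9, and 2 higher and 1 lower with surrogate variables. Without UCMSC-Exos 1 it gave 4 higher and 1 lower, and without UCMSC-Exos 2, 3 or 5 it gave 4 higher and 0 lower.

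Among 18 genes for HDL apolipoproteins and their partners, 7 rose and 4 fell (median log2 fold change 0.31), beside 9.73% and 10.4% of all genes. With surrogate variables 2 rose and 0 fell (median 0.06). Leaving out single libraries gave from 5 to 8 rises and 3 or 4 falls, and limma voom gave 13 rises and 4 falls. The structural protein of HDL, Apoa1, was among the rises (0.52 ± 0.14, adjusted p = 0.0134), and the falls were Lipg, Pltp, Apoa4 and Apod. Apom, an HDL apolipoprotein that carries sphingosine-1-phosphate, averaged 120 ± 32.7 CPM in UCMSC-Exos livers and 64.4 ± 11.2 CPM in untreated livers (0.89 ± 0.16, adjusted p = 0.00100). Bmp1, the protease that matures apolipoprotein A-I, averaged 150 ± 20.99 CPM with UCMSC-Exos and 109 ± 8.91 CPM without (0.47 ± 0.08, adjusted p = 0.000939). Lipg, endothelial lipase, which breaks down HDL phospholipid, fell to 24.3 ± 4.02 CPM in UCMSC-Exos livers, against 35.4 ± 6.60 CPM in untreated livers (-0.54 ± 0.12, adjusted p = 0.00473; with surrogate variables adjusted p = 0.0605). Apod, picked out after its values were seen, had 10.8 CPM in untreated HFD 9 and under 1 CPM in every other library. Its log2 fold change was -3.59 (adjusted p = 0.0310) and without untreated HFD 9 it was -1.71 (adjusted p = 0.0991), and the call was also lost without UCMSC-Exos 1, 2, 3, 5 or 7 (adjusted p from 0.0562 to 0.0620).

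Of 16 genes tested on a list of LXR receptors, their partners and targets, 2 rose (Rxra and Nr0b2) and 2 fell (Scd1 and Pltp), with a median of 0.04. For the genes listed, these counts are near the shares of all genes, 9.73% higher and 10.4% lower. The other 12 did not pass, among them the LXR genes Nr1h3 and Nr1h2 and the listed targets Srebf1, Mylip, Lpcat3 and Apoe. The list holds none of the 10 genes above, so Abcg5 and Abcg8, which rose, and Abcg1, which fell, are not counted in it. Abca1, which did not pass, is not counted either. Without UCMSC-Exos 9, 3 rose and 4 fell, and without UCMSC-Exos 5, 1 rose. Scd1, the stearoyl-CoA desaturase that LXR and SREBP-1c drive, fell to 4840 ± 1161 CPM in UCMSC-Exos livers, against 14260 ± 4822 CPM in untreated livers (-1.56 ± 0.21, adjusted p = 0.000107). Pltp, the phospholipid transfer protein that also counts among the HDL partners, fell to 55.2 ± 6.85 CPM with UCMSC-Exos, against 84.1 ± 22.3 CPM without (-0.61 ± 0.14, adjusted p = 0.00708). Rxra, the retinoid receptor that pairs with LXR, rose by 0.40 ± 0.10 on the log2 scale (adjusted p = 0.0117). With surrogate variables the Pltp and Rxra calls ended (adjusted p = 0.0628 for Pltp and 0.127 for Rxra).

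Of 18 genes for lysosomal and membrane sterol transfer, 4 rose (Gramd1c, Mcoln1, Lamp2 and Smpd1) and 2 fell (Npc2 and Stard3), with a median of 0.17. Of all genes 9.73% rose and 10.4% fell, so the share of the list that fell was near that of all genes. Npc2, the soluble carrier that passes cholesterol to NPC1, fell to 112 ± 17.8 CPM in UCMSC-Exos livers, against 163 ± 7.07 CPM in untreated livers (-0.53 ± 0.08, adjusted p = 0.000277). All 8 UCMSC-Exos libraries were below the untreated range for Npc2, which 0.807% of genes tested did in that direction. Gramd1c, of the family that carries sterol from plasma membrane to endoplasmic reticulum, rose by 0.47 ± 0.10 (log2, adjusted p = 0.00319), and Mcoln1, a lysosomal calcium channel, by 0.26 ± 0.08 (adjusted p = 0.0264). With surrogate variables both calls were lost (adjusted p = 0.0728 for Gramd1c and 0.194 for Mcoln1), and Mcoln1 also lost its call without UCMSC-Exos 1, 5 or 8 (adjusted p = 0.05001, 0.0588 and 0.0529). The list's counts moved with single libraries: 10 higher and 4 lower without UCMSC-Exos 9, 6 and 3 without untreated HFD 3, 1 and 1 without UCMSC-Exos 1 or 5, and 2 and 1 without UCMSC-Exos 2, 3 or 7. With surrogate variables it gave 0 higher and 3 lower.

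The 7 cholesteryl ester hydrolases tested gave 1 rise and 0 falls (median -0.02), and the 12 genes of the LDL receptor route gave 1 rise and 0 falls (median 0.05), counts near the 9.73% of all genes that rose. Without UCMSC-Exos 9, the hydrolases gave 2 rises and 1 fall, and the LDL receptor route 2 rises and 0 falls. With surrogate variables the hydrolases gave 1 rise and 2 falls, and the LDL receptor route 0 rises and 1 fall. The rises over all libraries were Aadac, an ester hydrolase of the endoplasmic reticulum, at 348 ± 56.5 CPM with UCMSC-Exos and 240 ± 22.3 CPM without (0.54 ± 0.10, adjusted p = 0.00133), and Scap, the escort of SREBP, at 107 ± 17.7 CPM with UCMSC-Exos and 85.6 ± 8.53 CPM without (0.31 ± 0.09, adjusted p = 0.0232). The Scap call ended with surrogate variables (adjusted p = 0.228).

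**Figure D5:**
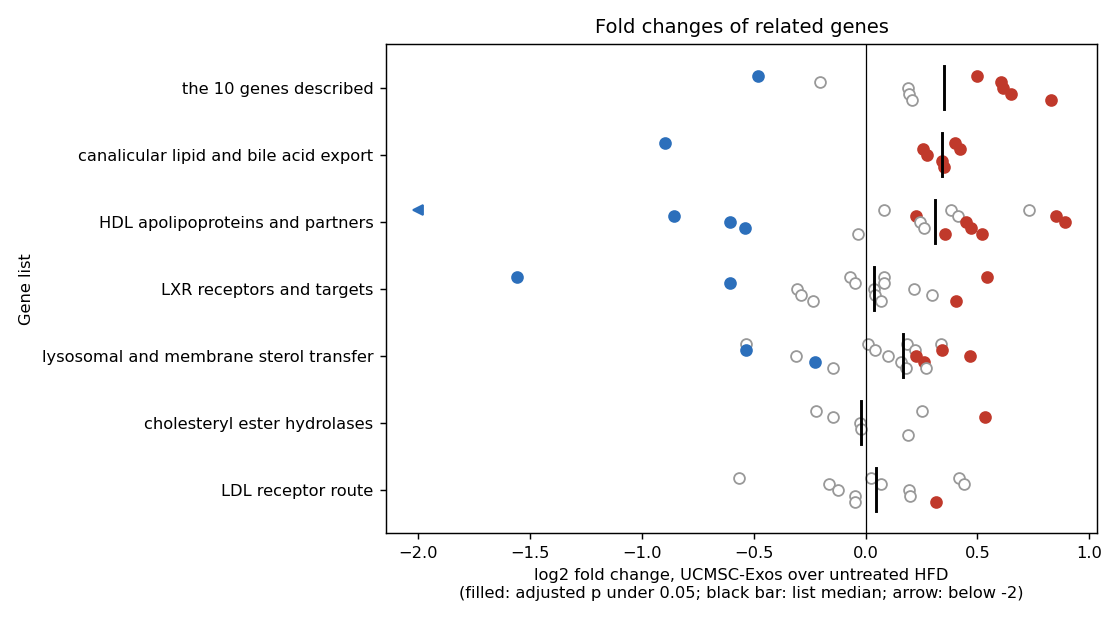
Log2 fold change (UCMSC-Exos over untreated HFD) of every tested gene in the 10-gene set and in 6 lists of neighbouring pathway steps, with genes past the adjusted p threshold of 0.05 drawn filled, a black bar at each list's median and an arrow for Apod, which lay below -2. Of the canalicular export genes 6 of 7 lay above 0, and LXR targets and the LDL receptor route scattered around it.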

How the data were processed

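The tools named are fastp 1.3.3, HISAT2 2.2.1 and featureCounts (Subread 2.0.2) with build mm10, a list taken from the submitters' processing notes; per the file headers, featureCounts 2.1.1 counted both mates over exons of GENCODE vM25 with no strand option. The deposited values are raw counts per gene, beside the authors' exon length for each gene, used for CPM per kb; depth per library is in the report. Symbols were found for 55141 of 55401 IDs. One per-sample column (1) matched no sample and was not used.

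The 8 UCMSC-Exos and 9 untreated HFD libraries were compared in edgeR 4.0.16 (R 4.3.3): filterByExpr, TMM factors (0.868 to 1.181), robust quasi-likelihood F test, Benjamini-Hochberg over 16238 genes, threshold 0.05; the biological coefficient of variation was 0.29. CPM in the text is TMM-scaled. Shared replicate numbers were checked for pairing over 8 pairs (correlations of deviations -0.17 to 0.24, with 2 over 0.1), so no block was used. The closest libraries, UCMSC-Exos 2 and 3, differed by a median of 4.07 times counting noise, so none was a duplicate. The scripts were tested on simulated data. Ratios of counts were tested by exact permutation over 24310 splits. Alternatives were RLE and upper-quartile scaling, other filters, a replicate block, surrogate variables (sva 3.50.0), DESeq2 1.42.0, limma 3.58.1 voom with quality weights, and leaving out libraries. Named genes are all 10 members, up to 3 passing genes of smallest p in each pathway list, and up to 3 genes most correlated with each member; other list genes named beside small counts were picked after their values were seen. Promoter windows came from RefSeq (6 of 10 genes matched). The 10 genes and the lists were chosen with earlier results of these data known. Labels call each sample a mouse, so p-values describe the spread between mice, within the limits of unlisted cages and batches.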

Additional observations from a re-analysis of the deposited data

Results flagged for a closer look

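The Lcat level in UCMSC-Exos 9, 214.5 CPM, was far from the other 7 UCMSC-Exos livers, which lay between 331.4 and 434.8 CPM: its gap to the nearest took 0.531 of the group's range, past the critical share of 0.526 for 8 samples. The Soat1 level in the same library, 40.98 CPM, was above the other 7, which lay between 22.62 and 28.66 CPM, with a gap share of 0.671. In all, 26 sets of values were examined this way and 2 stood out; chance marks about 1 in 20.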

How the results depend on the processing

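No member of the set of 10 changed sign under any alternative run. The number of genes changed, 3274, was 1549 with surrogate variables, 7732 with limma voom, 6716 without untreated HFD 3 and 9 and UCMSC-Exos 9 (chosen after seeing the data), and 2005 to 5823 when single libraries were left out. With DESeq2 it was 4065, and with no filter 2279. Members higher, 5, numbered 2 with surrogate variables, 7 with DESeq2 and 5 to 7 with single libraries left out. Members lower, 1, numbered 0 with surrogate variables, 2 with voom, 2 without the 3 libraries named, and 1 to 2 with single libraries left out. Leaving out any single library ended none of the 6 member calls. The replicate block, on numbers that do not pair the mice, gave 3029 genes with 5 members higher and 1 lower. The 3 ratios kept their direction and their side of the threshold in all alternatives run. Why surrogate variables ended 4 member calls was not tested. With 8 and 9 mice, a p that missed the threshold does not show equal levels.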
